A study of Mus musculus with 20 samples.

Results

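The C-type lectin receptors of murine bone marrow-derived dendritic cells (BMDCs) were described here as a family of 10 genes: Clec4e, Clec4d, Clec4n, Clec7a, Clec5a, Clec4a2, Clec12a, Clec10a, Mrc1 and Cd209a. The members were taken by gene symbol from a table of 24421 genes counted by bulk RNA-seq, and all 10 were found. Of these, 9 passed the filter on low counts and were among the 12465 genes tested. Cd209a did not pass, with 1 to 14 reads a library.

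Bone marrow of wild-type C57BL/6 mice was cultured for 8 days with 40 ng/mL GM-CSF, and the cells were then treated for 4 hours. Cells of each of 5 mice (A to E) were split over 4 groups, which gave 20 libraries. The groups were DMSO Ova (ovalbumin alone with DMSO, 5% in the labels), DMSO IC (immune complexes of ovalbumin and rabbit anti-ovalbumin antibody with DMSO), iBET Ova and iBET IC (the same stimuli with I-BET151 at 3.3 uM). I-BET151 (iBET) occupies the bromodomains of BET proteins, which read acetylated histones. All groups therefore met ovalbumin, and no group was left unstimulated. The labels state that drug and stimulus were given together, whereas the methods place iBET before the stimulus, and whether the iBET wells held as much DMSO as the controls was not given in the sources used here. The labels have the cells sorted into lysis buffer, with no gate given, whereas the methods describe lysis in the culture.

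C-type lectin receptors bind sugars, glycolipids and other ligands of microbes and damaged cells through a shared lectin fold. Mincle, MCL and Dectin-2 signal through the Fc receptor gamma chain, Dectin-1 through its own tail and CLEC5A through DAP12 and DAP10. The routes through the gamma chain, the Dectin-1 tail and DAP12 meet at the kinase Syk and, beyond it, the adaptor CARD9. DCIR and MICL carry inhibitory tails that recruit phosphatases, while MGL1, the mannose receptor and DC-SIGN homologues mainly take up glycosylated cargo. Immune complexes engage Fc-gamma receptors, whose activating members use the same gamma chain and Syk.

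With iBET, 8 of the 9 receptors tested were lower, both in Ova-treated and in IC-stimulated cells, and none was higher. The fall was widest for Clec7a, Clec4e, Clec5a, Clec4d and Clec4a2, by 2.15-fold to 3.43-fold over both stimuli, and smaller for Clec4n, Clec12a and Clec10a, by 1.25-fold to 1.83-fold. Mrc1 did not pass the test in either comparison, though with the mouse as a block it was lower in Ova (adjusted p = 0.0010). IC raised Clec4e 3.51-fold in DMSO and 4.85-fold in iBET, and among the others only Clec7a passed, in iBET by 1.41-fold, a call that was lost without mouse B, C, D or E. With the mouse as a block, 5 receptors were higher and 1 lower with IC in DMSO, and 7 were higher in iBET.

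Library totals ran from 16447491 to 29245150 counts, with overlapping ranges in the 4 groups. Levels are given as CPM, counts scaled to the library's size with TMM factors, and as RPKM where genes are compared, which is CPM divided by the kilobases of exon. The labelled cell type was set against marker lists, and a list's level is the sum of its genes' CPM. Dendritic cell markers summed to between 4547 and 9297 CPM in every library, mostly Itgax and Cd74, while Flt3 had 3 to 134 reads a library. Macrophage markers were also present, at 1446 to 2184 CPM in DMSO Ova, 1597 to 2185 in DMSO IC, 1046 to 1483 in iBET Ova and 1102 to 1727 in iBET IC. Monocyte markers summed to between 13100 and 28267 CPM, which was mainly Chil3 and Fn1. Eosinophil markers reached 147 CPM, neutrophil markers 52.7, erythroid markers 15.9 and mast cell or basophil markers 13.2. B cell markers reached 0.726 CPM and T cell markers 0.163 CPM, and in the median library Ms4a1, Cd3e and Elane had 0 reads. In bulk RNA, fewer cells of a type and less RNA per cell cannot be told apart.

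The members lie on 4 chromosomes of GRCm38 (mm10; GENCODE M21), with 7 of them on chromosome 6. Clec4a2, Clec4n, Clec4d and Clec4e sit together in 183.4 kb at chr6:123106428-123289870, and Clec12a and Clec7a lie within 130.1 kb at chr6:129342691-129472779. Clec5a lies at chr6:40574894-40585821, Mrc1 at chr2:14229392-14332057, Clec10a at chr11:70156197-70170834 and Cd209a at chr8:3743397-3748984. Clec4e (minus strand) and Clec4d (plus strand) are neighbours and start 27.8 kb apart. GENCODE M21 types Clec7a as a polymorphic pseudogene and the rest as protein coding, and no exon of a member overlaps an exon of another annotated gene. Of windows of 100 bases in their transcripts, 2.64% of Clec10a are shared with Mgl2 and 2.14% of Clec4a2 with Clec4a4. Read pairs that lie wholly in those stretches cannot be assigned to 1 gene by their sequence.

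Promoters are shown for 4 members that the results turn on: Clec4e and Clec4d, neighbours whose values with IC are set side by side, Clec7a, which fell among the most with iBET, and Mrc1, which changed least. Each is the 250 bases before the RefSeq start (GRCm38.p6), 5′ to 3′ on the gene's strand, at chr6:123289872-123290121 (minus) for Clec4e, chr6:123261857-123262106 (plus) for Clec4d, chr6:129472780-129473029 (minus) for Clec7a and chr2:14229164-14229413 (plus) for Mrc1. Capitals mark matches, on either strand, to motifs searched by their letters.
Clec4e: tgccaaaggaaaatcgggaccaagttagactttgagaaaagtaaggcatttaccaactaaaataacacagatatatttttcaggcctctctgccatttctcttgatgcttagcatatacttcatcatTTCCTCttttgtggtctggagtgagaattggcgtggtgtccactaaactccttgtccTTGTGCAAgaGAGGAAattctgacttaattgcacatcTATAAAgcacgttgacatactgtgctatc
Clec4d: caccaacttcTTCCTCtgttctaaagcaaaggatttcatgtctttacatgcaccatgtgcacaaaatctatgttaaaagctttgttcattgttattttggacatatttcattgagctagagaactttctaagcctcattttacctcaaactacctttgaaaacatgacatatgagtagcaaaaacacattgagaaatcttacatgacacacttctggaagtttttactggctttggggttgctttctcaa
Clec7a: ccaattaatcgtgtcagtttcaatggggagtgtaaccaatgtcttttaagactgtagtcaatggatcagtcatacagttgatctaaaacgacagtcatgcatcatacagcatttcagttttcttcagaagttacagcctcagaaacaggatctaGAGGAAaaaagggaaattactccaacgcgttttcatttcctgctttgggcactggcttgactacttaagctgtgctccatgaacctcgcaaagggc
Mrc1: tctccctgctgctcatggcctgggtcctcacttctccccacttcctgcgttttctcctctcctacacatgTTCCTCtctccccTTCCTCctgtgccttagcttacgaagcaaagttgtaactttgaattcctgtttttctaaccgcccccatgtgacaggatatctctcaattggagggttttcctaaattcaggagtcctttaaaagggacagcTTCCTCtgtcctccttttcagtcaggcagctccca
The motifs were PU.1 (GAGGAA), C/EBP (TTGCNNAA), the TATA box (TATAAA), AP-1 (TGANTCA), CRE (TGACGTCA), an interferon response core (GAAANNGAA), the E-box (CACGTG) and NF-kB, by name. In Clec4e, 29 to 24 bases before the start held a TATA box, 56 to 51 and 123 to 118 bases before it held PU.1 matches, and 66 to 59 bases before it held a C/EBP match, none of which overlap. RefSeq promoters were found for 8 of the 10 members; Clec4n and Clec10a had no entry. PU.1 letters stood in 6 of these 8, against 23.3% of all 32851 promoters of that length. TATA boxes stood in 4 of 8 (12.4% of all), C/EBP in 2 (9.56%) and AP-1 in 1 (6.75%). CRE (1.55%), the interferon core (7.13%), the E-box (6.02%) and NF-kB (3.9%) were found in 0 of these 8 windows. A match is a description of letters, not a bound site.

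Transcript levels per exon length spanned several orders of magnitude in DMSO Ova. Clec4n (Dectin-2) was highest at 1229 ± 358 RPKM (SD, n = 5) and Clec7a (Dectin-1) next at 385 ± 105 RPKM. Mrc1 followed at 71.6 ± 11.9 RPKM and Clec4a2 at 61.9 ± 10.1 RPKM, with overlapping ranges. Clec10a, Clec4d, Clec5a, Clec12a and Clec4e came next, from 32.0 ± 6.31 down to 8.06 ± 4.13 RPKM, and each overlapped the next in this order. Cd209a was lowest, at 0.178 ± 0.117 RPKM. Clec4n and Clec7a together held 63.5% to 80.0% of all member reads in every library. Summed over the 10 members, 2791 to 5020 CPM were found in DMSO Ova, 4018 to 5310 in DMSO IC, 1621 to 2577 in iBET Ova and 1931 to 3098 in iBET IC, so that both iBET groups lay below DMSO IC and iBET Ova lay below DMSO Ova. The order among the lower members depends on the length used: with the basic transcripts alone, an alternative chosen after the data were seen, Clec5a came after Clec12a and Clec4e.

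**Figure D1:**
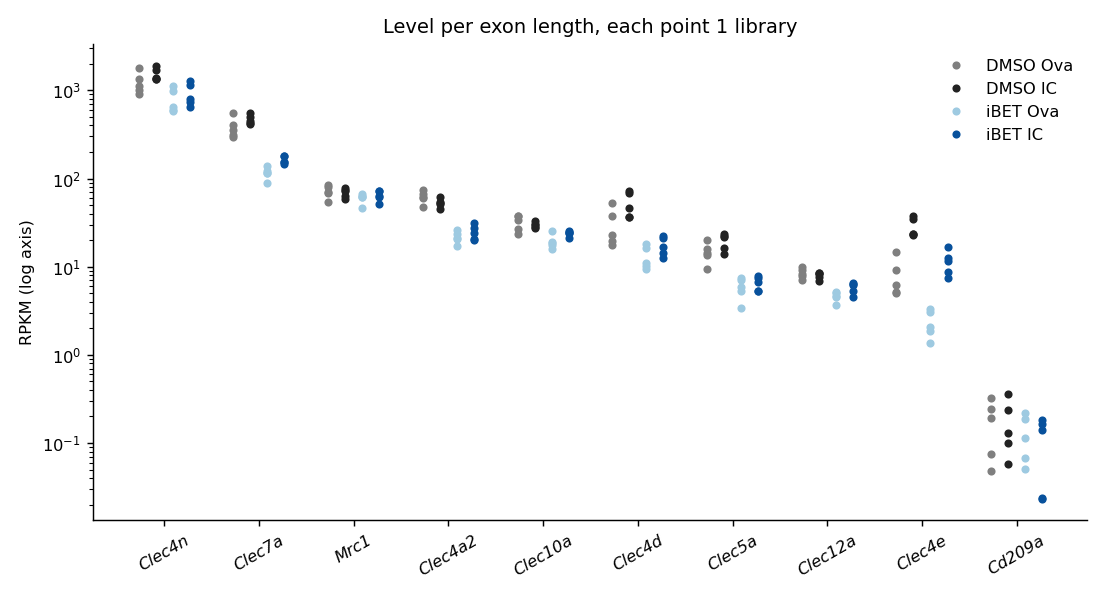
RPKM (log axis) of the 10 receptors, in the order of their mean in DMSO Ova, with 1 point for each of the 5 libraries of a group. Clec4n and Clec7a stand above the others in DMSO Ova without overlap (means 1229 and 385 RPKM), and Cd209a lies lowest at a mean of 0.178 RPKM.

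The first question was whether iBET changed receptor transcripts without and with Fc-gamma receptor engagement. In Ova-treated cells 8 of 9 receptors were lower past an adjusted p of 0.05 in the quasi-likelihood test of edgeR, against 28.9% of the 12465 genes tested. Their median log2 fold change was -1.20, against -0.0029 over all genes tested. In IC-stimulated cells 8 of 9 were again lower (29.0% of all genes), with a median of -1.10 against -0.0054. The DMSO and iBET ranges did not overlap for 5 receptors in Ova (Clec5a, Clec4a2, Clec4e, Clec12a and Clec7a; 19.5% of all genes lay apart and lower) and for 8 in IC (all tested but Mrc1; 21.6%). With the mouse as a block Mrc1 passed too in Ova, which made 9 of 9 (35.2% of all genes lower). Beside these falls, macrophage markers fell with iBET for 5 of 9 genes in Ova and 3 of 9 in IC, and dendritic cell markers fell for 4 of 9 in each; their part in the receptor values was not tested. Each comparison holds 5 libraries on each side from the same mice, and when each mouse was compared with itself, all 9 receptors were lower with iBET in all 5 mice, for either stimulus.

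**Figure D2:**
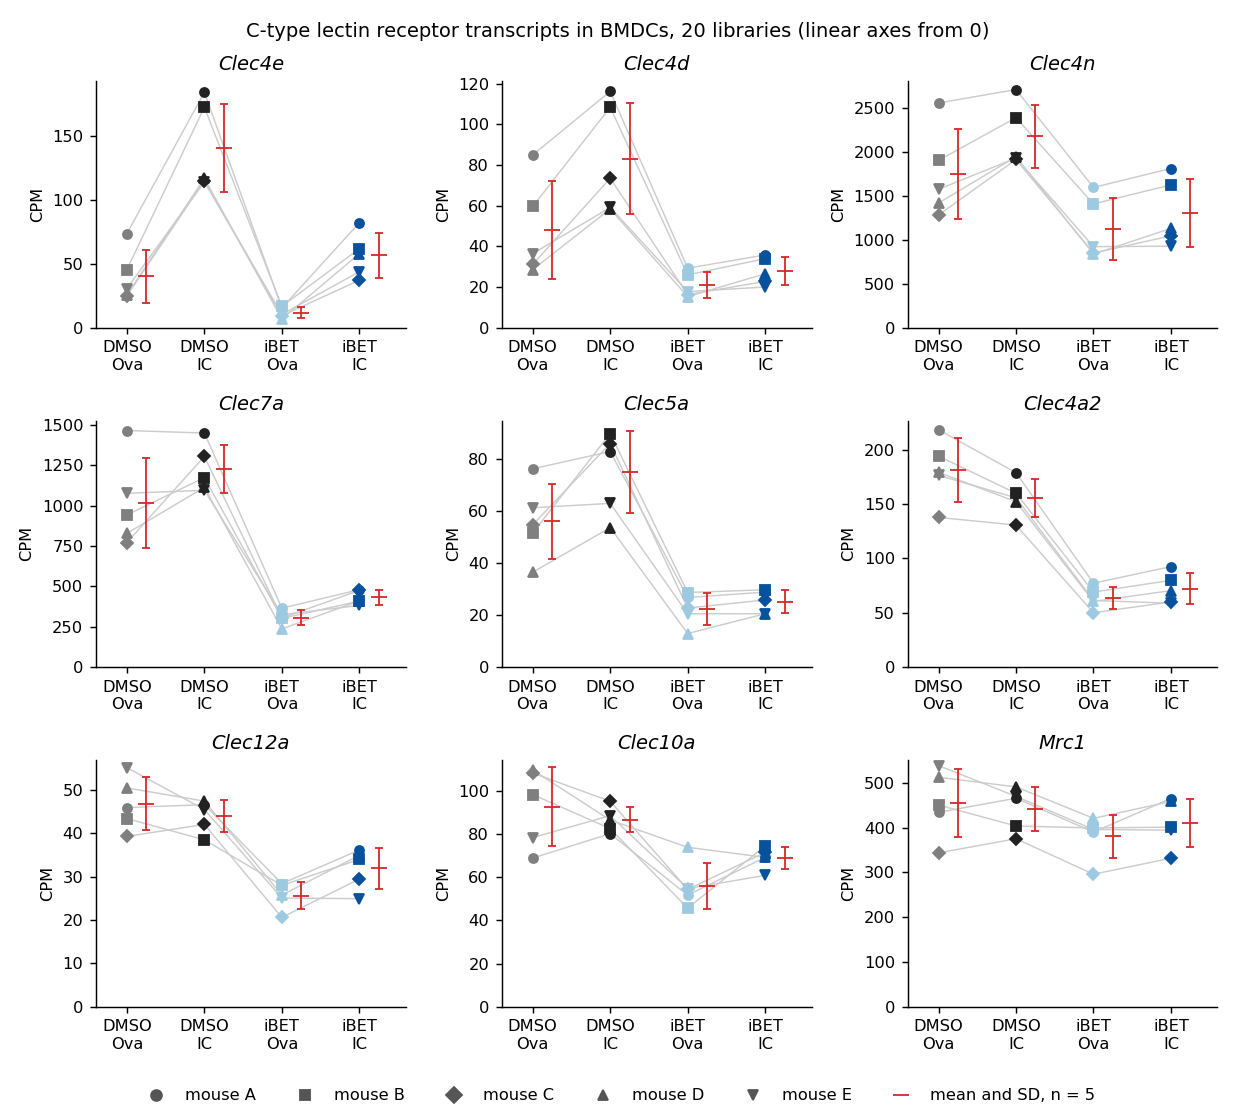
CPM (linear axes from 0) of the 9 receptors tested in the 4 groups, with 1 symbol for each mouse, grey lines joining the libraries of a mouse, and red bars for the mean ± SD of 5. With Ova, iBET lies below DMSO for Clec4e (mean 11.7 against 40.0 CPM) and for Clec7a (306 against 1016 CPM), while Mrc1 stays between 296 and 539 CPM in all groups.

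Clec4e encodes Mincle, the receptor for the mycobacterial cord factor and for a nuclear protein released by dying cells. In mice A, B, C, D and E its level was 73.6, 45.4, 24.8, 25.6 and 30.6 CPM in DMSO Ova and 15.3, 16.6, 9.28, 6.76 and 10.3 CPM in iBET Ova. With IC it was 184, 173, 115, 117 and 114 CPM in DMSO and 82.1, 61.7, 37.0, 57.8 and 43.7 CPM in iBET. Every iBET library lay below every DMSO library of the same stimulus, and iBET IC overlapped DMSO Ova. The log2 fold change with iBET was -1.78 ± 0.31 (SE) in Ova (adjusted p = 6.9e-05) and -1.31 ± 0.30 in IC (adjusted p = 0.00084). IC against Ova gave 1.81 ± 0.30 in DMSO (adjusted p = 0.00034) and 2.28 ± 0.32 in iBET (adjusted p = 9.1e-05), the largest rise of the family in either. Within single mice IC raised Clec4e 2.50-fold to 4.64-fold in DMSO and 3.71-fold to 8.56-fold in iBET.

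Clec4d encodes MCL, which pairs with Mincle and shares its glycolipid ligands. Its levels, mice A to E, were 84.9, 59.6, 31.1, 28.5 and 36.4 CPM in DMSO Ova and 29.2, 25.9, 16.2, 15.2 and 17.7 CPM in iBET Ova. With IC they were 116, 108, 73.5, 58.4 and 59.1 CPM in DMSO and 35.7, 33.9, 22.7, 26.5 and 20.0 CPM in iBET. The groups with Ova overlapped by the iBET library of mouse A and the DMSO library of mouse D, and those with IC did not overlap. With iBET the log2 fold change was -1.20 ± 0.30 in Ova (adjusted p = 0.0018) and -1.58 ± 0.30 in IC (adjusted p = 0.00014). With IC in DMSO Clec4d gave 0.79 ± 0.29, which missed the threshold (adjusted p = 0.060), though it was higher in 5 of 5 mice and passed with the mouse as a block (0.84, adjusted p = 1.1e-05). In iBET it gave 0.42 ± 0.30 (adjusted p = 0.41; 0.010 with the block).

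Clec4n encodes Dectin-2, which binds fungal mannans. It had 2554, 1901, 1280, 1416 and 1572 CPM in DMSO Ova and 1594, 1406, 847, 836 and 921 CPM in iBET Ova, and it had 2707, 2387, 1912, 1943 and 1927 CPM in DMSO IC and 1809, 1623, 1044, 1128 and 925 CPM in iBET IC. The groups overlapped in Ova, because mice A and B with iBET lay above mouse C with DMSO, and did not overlap in IC. The fall with iBET was 1.56-fold in Ova (log2 -0.64 ± 0.23, adjusted p = 0.021) and 1.67-fold in IC (-0.74 ± 0.23, adjusted p = 0.0091). The call in Ova was lost without mouse D (-0.62, adjusted p = 0.0605) or without mouse E (-0.61, adjusted p = 0.0602). With IC it was 0.32 ± 0.22 in DMSO (adjusted p = 0.35; 0.0016 with the block). For the 4 genes of this cluster, Clec4e, Clec4d, Clec4n and Clec4a2, mice A and B were higher than mice C, D and E in each of the 4 groups, which is a spread between mice that the fit without a block counts as error.

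Clec7a encodes Dectin-1, the receptor for fungal beta-glucan. In DMSO Ova it had 1464, 942, 771, 828 and 1075 CPM and in iBET Ova 364, 301, 304, 237 and 324 CPM. In DMSO IC it had 1448, 1173, 1303, 1112 and 1094 CPM and in iBET IC 480, 409, 475, 410 and 382 CPM. All 10 iBET libraries lay below all 10 DMSO libraries. Treatment with iBET gave a log2 fold change of -1.73 ± 0.15 in Ova (adjusted p = 8.3e-09) and -1.51 ± 0.15 in IC (adjusted p = 5.0e-08), which are 3.32-fold and 2.84-fold lower. With IC it was 0.27 ± 0.15 in DMSO (adjusted p = 0.21; 0.025 with the block) and 0.49 ± 0.15 in iBET (adjusted p = 0.033), where the ranges of iBET Ova and iBET IC did not overlap. The call in iBET was lost when mouse B, C, D or E was left out (adjusted p = 0.11, 0.13, 0.13 and 0.061).

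Clec5a encodes MDL-1, a receptor that signals through the adaptors DAP12 and DAP10. It had 76.2, 51.6, 54.7, 36.5 and 61.2 CPM in DMSO Ova and 26.8, 28.7, 22.7, 12.9 and 20.5 CPM in iBET Ova. With IC it had 82.9, 89.8, 85.9, 53.6 and 62.9 CPM in DMSO and 28.8, 29.7, 25.8, 20.5 and 20.5 CPM in iBET. Every iBET library lay below every DMSO library. The fall was -1.33 ± 0.21 on the log2 scale in Ova (adjusted p = 2.0e-05) and -1.58 ± 0.21 in IC (adjusted p = 2.5e-06). The difference with IC was 0.42 ± 0.20 in DMSO (adjusted p = 0.16; 0.0033 with the block) and 0.17 ± 0.21 in iBET (adjusted p = 0.67; 0.20 with the block).

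The inhibitory receptors were lower with iBET as well. Clec4a2 encodes DCIR, which carries an inhibitory tyrosine motif. It had 218, 194, 138, 179 and 176 CPM in DMSO Ova, 179, 160, 131, 152 and 156 CPM in DMSO IC, 77.2, 69.1, 50.0, 60.4 and 61.3 CPM in iBET Ova and 92.4, 79.8, 60.0, 70.4 and 58.7 CPM in iBET IC. The iBET and DMSO libraries did not overlap, and the folds within the 5 mice in Ova spanned 2.75 to 2.97. Its log2 change with iBET was -1.51 ± 0.14 in Ova (adjusted p = 2.2e-08) and -1.10 ± 0.14 in IC (adjusted p = 1.3e-06). IC against Ova in DMSO gave -0.22 ± 0.14 (adjusted p = 0.28). All 5 mice were lower, and the fit with the mouse as a block passed (adjusted p = 0.0054). In iBET it gave 0.18 ± 0.14 (adjusted p = 0.44; 0.021 with the block).

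Clec12a encodes MICL, an inhibitory receptor for uric acid crystals. It lay between 39.3 and 55.1 CPM in DMSO Ova, with a median of 45.9, and between 20.6 and 28.4 in iBET Ova, with a median of 25.8. In DMSO IC it lay between 38.5 and 47.4 CPM, with a median of 45.5, and in iBET IC between 24.9 and 36.2, with a median of 34.0. Neither pair of groups overlapped. For iBET the log2 fold change was -0.87 ± 0.11 in Ova (adjusted p = 1.4e-06) and -0.46 ± 0.11 in IC (adjusted p = 0.0013), of which the second was -0.26 and missed the threshold in mice A and B alone (adjusted p = 0.084). With IC it gave -0.09 ± 0.11 in DMSO (adjusted p = 0.62) and 0.32 ± 0.11 in iBET (adjusted p = 0.066; 0.015 with the block).

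Among the endocytic receptors, Clec10a encodes MGL1. It lay between 68.9 and 110 CPM in DMSO Ova and between 45.7 and 73.9 in iBET Ova, overlapping by mouse D with iBET. In DMSO IC it lay between 80.2 and 95.3 CPM and in iBET IC between 60.9 and 74.5, without overlap. The log2 fold change with iBET was -0.73 ± 0.13 in Ova (adjusted p = 5.9e-05) and -0.33 ± 0.12 in IC (adjusted p = 0.032). The second call was lost without mouse C (adjusted p = 0.11), without mouse E (0.13) or with no filter on low counts (0.052), and in mice A and B alone the value was -0.16 (adjusted p = 0.42). Mgl2, its close paralogue, had 588 ± 80.9 CPM in DMSO Ova against 486 ± 38.0 in iBET Ova, a log2 fold change of -0.27 ± 0.09 (adjusted p = 0.018), and was chosen for mention after its values were seen. In IC it gave -0.07 ± 0.09 (adjusted p = 0.54) and was lower in 3 of 5 mice.

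Mrc1 encodes the mannose receptor, CD206. It had 434, 451, 344, 513 and 539 CPM in DMSO Ova and 390, 399, 296, 421 and 396 CPM in iBET Ova. With IC it had 466, 404, 375, 491 and 470 CPM in DMSO and 465, 401, 332, 459 and 395 CPM in iBET. All 4 groups overlapped. Its log2 fold change with iBET was -0.26 ± 0.12 in Ova (adjusted p = 0.076). All 5 mice were lower, and the fit with the mouse as a block passed (-0.26, adjusted p = 0.0010). It also passed without mouse C (adjusted p = 0.020). In IC the value was -0.10 ± 0.12 (adjusted p = 0.48; 0.13 with the block).

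Cd209a, a mouse homologue of DC-SIGN, was close to absent. It had 2 to 11 reads a library in DMSO Ova, 2 to 14 in DMSO IC, 2 to 7 in iBET Ova and 1 to 6 in iBET IC. The highest value was 0.568 CPM. At this depth no difference was detectable in any comparison: tested without the filter on low counts, the log2 fold change with iBET was -0.47 ± 0.59 in Ova (adjusted p = 0.57) and -0.81 ± 0.61 in IC (adjusted p = 0.33).

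**Figure D3:**
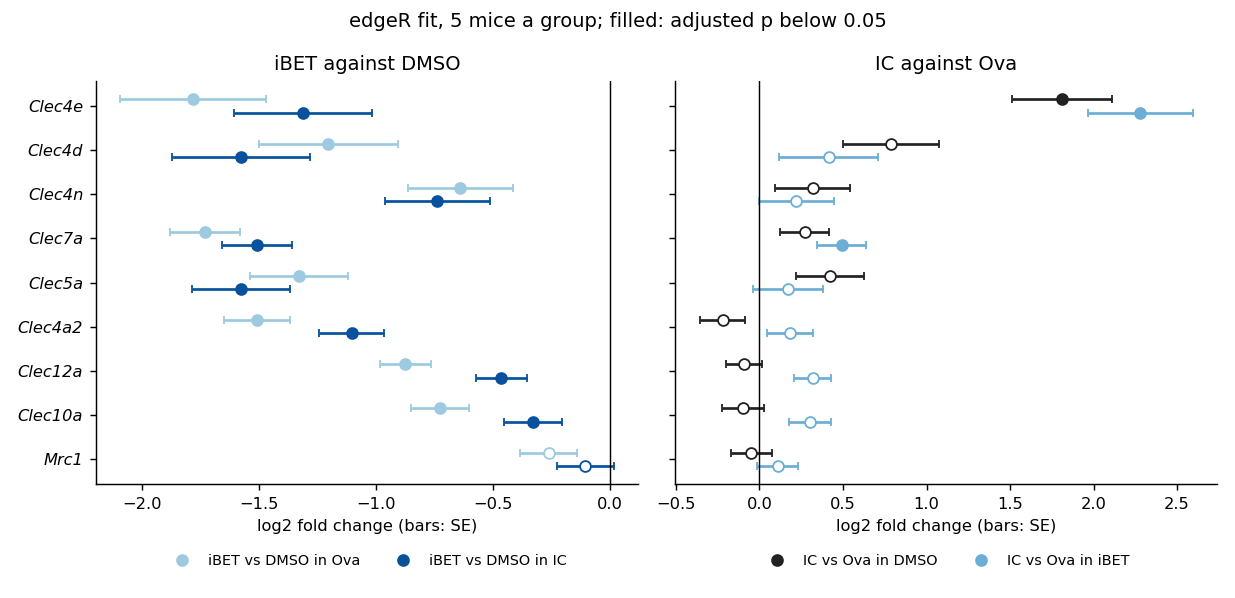
Log2 fold change ± SE from the edgeR fit for 9 receptors, with iBET against DMSO on the left and IC against Ova on the right, and filled symbols where the adjusted p is below 0.05. All symbols on the left lie below 0, with those of Mrc1 open, and on the right Clec4e stands out at 1.81 in DMSO and 2.28 in iBET.

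The second question was whether IC itself changed the receptors, in DMSO and in iBET. In DMSO 1 of 9 receptors was higher and none was lower by the edgeR test, against 9.59% of all genes higher. Clec4e was also the only member with separate ranges (5.97% of all genes). With the mouse as a block, 5 were higher (Clec4e, Clec4d, Clec4n, Clec5a and Clec7a; 18.3% of all genes) and 1, Clec4a2, lower (19.8%). At an unadjusted p under 0.05, 2 of 9 passed, and DESeq2 called 2. The shares of all genes by these 2 criteria are not given here, so these counts have no background to be read against. In iBET 2 of 9 were higher (Clec4e and Clec7a; 5.19% of all genes), the same 2 had separate ranges (4.57%), and with the block 7 were higher, all tested but Clec5a and Mrc1 (14.2%). The median log2 fold change of the 9 was 0.27 in DMSO and 0.30 in iBET, against -0.02 and -0.01 over all genes tested. These comparisons share their libraries with the iBET comparisons above, so their values were set side by side and not correlated.

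The third question was whether iBET acted differently on the receptors with IC than with Ova. The interaction is iBET's log2 change in IC minus that in Ova. There, 0 of 9 passed in edgeR (0.0401% of all genes) and 0 in DESeq2. At an unadjusted p under 0.05, 2 of 9 passed, and the share of all genes at that level is not given here. Clec4e gave 0.47 ± 0.42, Clec12a 0.41 ± 0.15, Clec4a2 0.41 ± 0.19 and Clec10a 0.40 ± 0.18, and Clec4d gave -0.37 ± 0.41. With the mouse as a block 1 passed (0.818% of all genes), which was Clec4a2 at 0.39 (adjusted p = 0.022), so that its fall with iBET was smaller in IC. A rise of Clec4e with IC was therefore seen under both treatments, and the data did not show it to differ between them.

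The genes whose profiles were nearest to each member were found by Pearson's r of log2 CPM over the 20 libraries. These libraries share 4 groups and 5 mice, so the r values describe joint movement with both. Clec4e was nearest to Rragc (r = 0.977), Clec4d to Slc7a2 (0.981), Clec4n to Anxa2 (0.974), Clec7a to P2ry14 (0.981), Clec5a to Serpinb2 (0.970), Clec4a2 to Myo1f (0.990), Clec12a to Snw1 (0.943), Clec10a to Pld4 (0.885) and Mrc1 to Arhgap15 (0.817). After the mouse means were taken out, Clec4e was nearest to Il1a (0.989), Clec4d to Tnfrsf26 (0.987), Clec4n to Txndc17 (0.987), Clec7a to Mrpl11 (0.989), Clec5a to Bcl2a1d (0.991), Clec4a2 to Blnk (0.995), Clec12a to Ccdc80 (0.974), Clec10a to Nagpa (0.939) and Mrc1 to Fkbp1b (0.933). Within the family over the 20 libraries, Clec4d and Clec4n were nearest to each other (0.952), as were Clec7a and Clec5a (0.951) and Clec12a and Clec4a2 (0.930), and Clec4e was nearest to Clec4d (0.855). For every tested member, genes outside the family were nearer, and the nearest member ranked from 8 to 843 among all genes. After the mouse means were taken out, Clec7a and Clec5a remained nearest to each other (0.979). Clec4n was then nearest to Clec5a (0.970) and Clec4a2 to Clec7a (0.952).

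Of 44 other C-type lectin genes listed, 24 were tested, and 17 were lower with iBET in Ova (28.9% of all genes) and 14 in IC (29.0%). None was higher in either, where 27.7% and 27.1% of all genes were, and the medians were -1.23 and -0.84. With the mouse as a block 20 were lower in each (35.2% and 35.4% of all genes) and 1 was higher in Ova (33.5%). This was Cd69, an early activation marker, named after its values were seen, at 0.50 (adjusted p = 0.00077; 0.53 and 0.13 without the block). Clec4b1, a gene of the DCIR family, fell from 20.5 ± 2.50 CPM to 5.66 ± 1.30 in Ova (log2 -1.85 ± 0.16, adjusted p = 8.4e-09). Clec4a3, likewise of that family, fell from 22.0 ± 5.04 to 6.36 ± 0.97 CPM (-1.79 ± 0.19, adjusted p = 1.4e-07). Olr1, the receptor for oxidised LDL, fell from 75.2 ± 12.7 to 23.9 ± 3.31 CPM (-1.65 ± 0.14, adjusted p = 7.7e-09). In IC these were -0.95, -1.33 and -1.33 on the log2 scale, all past the threshold. With IC in DMSO 2 of 24 were higher, Olr1 at 1.16 ± 0.14 (adjusted p = 1.1e-05) and the low-count gene Layn at 1.15 (adjusted p = 0.0091), against 9.59% of all genes. Lower was 1, Clec4b1 at -0.57 ± 0.15 (adjusted p = 0.012), against 10.7%. With the mouse as a block 5 of 24 were higher and 7 lower, against 18.3% and 19.8% of all genes.

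Of the 3 coupling chains, 0 passed in any comparison by edgeR or DESeq2, and 0 had an unadjusted p under 0.05 in edgeR. By edgeR 28.9% of all genes were lower and 27.7% higher with iBET in Ova. Fcer1g, the Fc receptor gamma chain, was at 236 ± 37.8 CPM in DMSO Ova, 277 ± 28.5 in DMSO IC, 258 ± 32.1 in iBET Ova and 299 ± 41.9 in iBET IC. Its log2 fold change with iBET was 0.13 ± 0.11 in Ova (adjusted p = 0.35; 0.018 with the block). Tyrobp (DAP12) was at 410 ± 106 CPM in DMSO Ova and 406 ± 80.3 in iBET Ova, a difference of -0.01 ± 0.18 (adjusted p = 0.96). Hcst (DAP10) was at 3.64 ± 1.17 and 4.45 ± 0.48 CPM, a difference of 0.30 ± 0.17 (adjusted p = 0.15). With the mouse as a block, IC raised Fcer1g by 0.24 and Tyrobp by 0.22 on the log2 scale in DMSO (adjusted p = 0.00083 and 0.0081), and by 0.21 and 0.24 in iBET (adjusted p = 0.0041 and 0.0064).

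Of the 15 kinases and adaptors next to the receptors, 12 were lower with iBET in Ova and none higher (28.9% and 27.7% of all genes), and in IC 11 were lower and 1, Plcg2, was higher (0.15 ± 0.06, adjusted p = 0.043), against 29.0% and 27.1% of all genes. Syk fell from 410 ± 23.4 to 210 ± 6.42 CPM in Ova (-0.97 ± 0.05, adjusted p = 7.8e-12) and changed by -0.92 ± 0.05 in IC. The Src family kinase Fgr fell from 114 ± 6.26 to 12.9 ± 1.48 CPM (-3.14 ± 0.08, adjusted p = 1.2e-15), the adaptor Blnk from 42.0 ± 9.99 to 7.70 ± 2.03 CPM (-2.44 ± 0.22) and Src from 66.2 ± 11.0 to 22.8 ± 3.06 CPM (-1.54 ± 0.12). With IC in DMSO 3 were higher, Grb2 by 0.61, Vav1 by 0.37 and Syk by 0.35 on the log2 scale, and 3 were lower, Btk at -0.36, Fgr at -0.34 and Plcg2 at -0.19, where 9.59% and 10.7% of all genes were. With the block these counts were 6 and 4 (18.3% and 19.8% of all genes).

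The CARD9 module, which joins Syk to NF-kB, was mixed. Of 12 genes, 3 were higher and 5 lower with iBET in Ova, and 2 higher and 5 lower in IC. Of all genes 27.7% were higher and 28.9% lower in Ova, and 27.1% and 29.0% in IC, so the shares here were near the background. Card9 fell from 51.1 ± 3.35 to 33.4 ± 2.01 CPM in Ova (-0.61 ± 0.07, adjusted p = 2.1e-07) and changed by -0.40 ± 0.07 in IC, and with IC in DMSO it fell to 31.1 ± 2.34 CPM (-0.72 ± 0.07, adjusted p = 5.7e-07). The NF-kB subunits Relb (-1.10 ± 0.31) and Rela (-0.54 ± 0.11) were lower in Ova. Chuk (0.24 ± 0.08) and Map3k7 (0.20 ± 0.05), kinases of the same route, were higher. With IC in DMSO Malt1 (0.58) and Ikbkg (0.35) were higher and Ikbkb (-0.23) was lower with Card9, 2 of 12 each way (9.59% and 10.7% of all genes).

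Inhibitory signalling genes, 10 tested of 11, were lower for 5 and higher for 1 in both iBET comparisons, against 28.9% lower and 27.7% higher of all genes in Ova and 29.0% and 27.1% in IC. The adaptor Dok2 fell from 108 ± 15.0 to 10.8 ± 0.90 CPM in Ova (-3.32 ± 0.11, adjusted p = 1.5e-14). The phosphatases Ptpn6 (SHP-1; -1.25 ± 0.09) and Inpp5d (SHIP-1; -1.01 ± 0.08), which ITIM receptors recruit, were lower, and Ptpn11 (SHP-2) was higher, from 125 ± 6.67 to 177 ± 7.33 CPM (0.51 ± 0.05, adjusted p = 1.4e-07). With IC in DMSO Dok2 (-0.93) and Ptpn6 (-0.31) were lower and none was higher (10.7% and 9.59% of all genes). With the block 2 of 10 were higher and 2 lower, near the 18.3% and 19.8% of all genes.

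**Figure D4:**
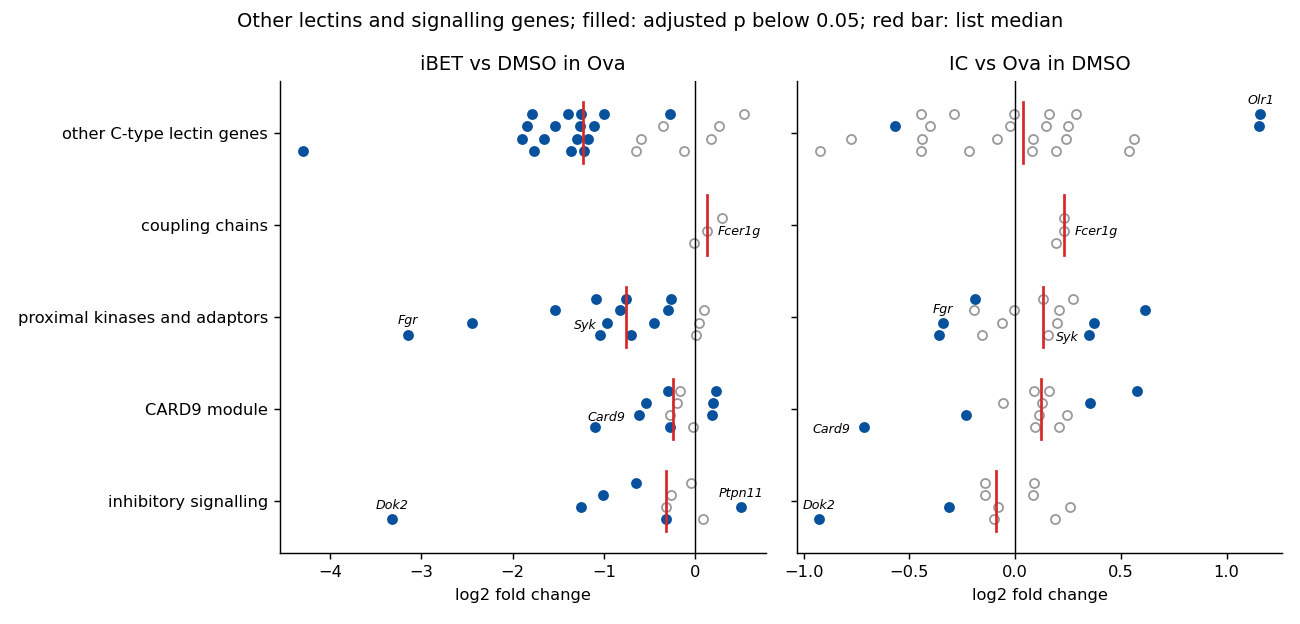
Log2 fold change of every tested gene of 5 lists, 1 circle a gene, with iBET against DMSO in Ova on the left and IC against Ova in DMSO on the right; filled circles have an adjusted p below 0.05 and red bars mark the list medians. On the left the other C-type lectins lie mostly below 0 (median -1.23) and the coupling chains near 0 (median 0.13), and on the right Olr1 lies at 1.16 and Card9 at -0.72.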

How the data were processed

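The 20 BMDC libraries were made by bulk RNA-seq, 1 from each of 5 mice in every one of the 4 groups. Per the methods and labels, reads were trimmed with Trim Galore, aligned to mm10 with HISAT2 and counted on genes with featureCounts. The authors deposited raw counts per gene and library, which were used here, and a table of these counts divided by size factors, which was not used. The gene annotation behind the counts, whether strand was used and how reads matching several genes were handled were not given in the sources used here.

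Genes were filtered with filterByExpr (12465 of 24421 kept; 6187 had no count) and scaled with TMM. A model of the 4 groups, without further terms, was fitted with edgeR 4.0.16 (R 4.3.3) and contrasts were tested by quasi-likelihood, with Benjamini-Hochberg adjustment over all tested genes and a threshold of 0.05; the scripts were tested on simulated data. The mouse letters of the labels mark the same animal. Deviations from the group means correlated by 0.31 to 0.68 (mean 0.52) in all 30 pairs of libraries of a mouse. In the 120 pairs from different mice and groups they correlated by -0.58 to 0.56 (mean -0.13), so the ranges overlap. The fit with the mouse as a block is therefore given where it changed a call of a receptor. For genes of the other lists it is given only in part. DESeq2 1.42.0, sva 3.50.0, other scalings, no filter and leaving out mice were alternatives. No 2 libraries of a group agreed within sampling noise (chi-square per degree of freedom at least 12.5). Exon lengths came from GENCODE M21 and promoters from RefSeq.

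The members and all gene lists were chosen with earlier results of these data known. Named besides the members were, in each list, up to 3 genes each way with the largest change with iBET in Ova among those called in both iBET comparisons with a mean of at least 100 counts, up to 3 each way with IC in DMSO, and Fcer1g, Tyrobp, Hcst, Syk and Card9. Single values of some marker genes are not reported here.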

Additional observations from a re-analysis of the deposited data

Results flagged for a closer look

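Mrc1 in iBET Ova had 1 library far from the others. Mouse C was at 296 CPM, against 390 CPM in the next lowest library, and this gap took up 0.754 of the group's whole range, above the limit of 0.71 that Dixon's test sets for 5 samples. Mouse C was also lowest for Mrc1 in the other 3 groups. Of 40 groups of libraries examined in this way, 1 stood out, and chance alone picks out about 1 in 20.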

How the results depend on the processing

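No sign changed for a called receptor. Among refitted values of single receptors, 610 kept their direction and side of the threshold, 41 gained it, 13 lost it and 2 changed sign, both with mice A and B alone: Mrc1 with iBET in IC (0.013) and the interaction of Clec4n (0.024). Under a fold limit (log2 change of 1 or more either way), the calls with iBET fell to 5 in Ova and 5 in IC. For IC in DMSO, against 1 receptor called, the replicate block gave 6, DESeq2 2, DESeq2 with the block 6, surrogate variables 5 and mice C, D and E alone 4; leaving out 1 mouse gave 1 to 3. For IC in iBET, against 2, the block gave 7, DESeq2 with the block 7, surrogate variables 4, and library size scaling, mice A and B alone or the fold limit 1; leaving out 1 mouse gave 1 to 2. For the interaction, against 0, the block gave 1 and DESeq2 with the block 1. For the receptors, the block changed no call besides those given with it. Of the 10 places in the order of levels per length in DMSO Ova, 6 to 10 were kept when 1 mouse was left out, with 6 without mouse C or D. The cause of these shifts was not tested.

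Over all genes, the fold limit left 1865 of 7057 calls with iBET in Ova and 1867 of 6990 in IC. For IC in DMSO (2531 calls) the block gave 4755, DESeq2 with the block 4611, surrogate variables 4168, mice A and B alone 500 and the fold limit 184, with 1180 without mouse C and 1418 without mouse D. For IC in iBET (1474) these were 3601, 3594, 2790, 296 and 101, with 2343 for library size scaling and 917, 643 and 714 without mouse B, C and D. The interaction had 5 calls, and 102, 184, 20, 0 and 3 in that order, 25 with DESeq2, 13 with mice C, D and E alone, and 0 to 2 without 1 mouse.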

Other observations

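The neighbouring genes Clec4e and Clec4d were set against each other within each library, a comparison chosen after the values were seen and given without a test. Per length, over all exons, the RPKM of Clec4e was 0.245 to 0.289 times that of Clec4d in DMSO Ova, with a median of 0.271, and 0.143 to 0.207 times it in iBET Ova, with a median of 0.184. With IC the RPKM ratio was 0.505 to 0.645 in DMSO, with a median of 0.513, and 0.525 to 0.739 in iBET, with a median of 0.704. The IC libraries thus lay above the Ova libraries without overlap under either treatment. The size of the ratio depends on the length used: with the basic transcripts alone it was 0.400 to 0.472 in DMSO Ova and 0.824 to 1.05 in DMSO IC.

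Klrk1, the gene of the NKG2D receptor, showed the widest fall of the other C-type lectin genes tested with iBET in Ova (log2 fold change -4.30, adjusted p = 3.6e-07 in edgeR). It had 41 to 177 reads a library in DMSO Ova and 1 to 6 in iBET Ova, so the size of this fall rests on few reads. Klrk1 was named after its values were seen.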
